A study of Mus musculus musculus x M. m. domesticus and Mus musculus domesticus and Mus musculus with 12 samples.

Results

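The genes described here are the autosomal genes of chromosomes 1, 2 and 3 whose greatest induction among testis cell populations had been assigned to meiotic cells (spermatocytes) in the study's supplementary gene table. Genes on a second supplementary list of the study were to be left out, and 0 of these genes were on it. There were 206 such genes among the 7000 genes with deposited expression values, with 66 on chromosome 1, 88 on chromosome 2 and 52 on chromosome 3. The assignment came from published arrays of enriched cell populations and names the population with the strongest induction, so a meiotic gene can also be expressed in other cells of the testis. The same table held 1365 genes of these chromosomes with deposited values. Without those on the second list, 215 were in the mitotic class (spermatogonia), 165 in the postmeiotic class (round spermatids) and 96 in the somatic class (Sertoli cells). A further 679 had no cell type. The second list holds postmeiotic genes that were higher and mitotic genes that were lower in sterile males. Genes are given by their Ensembl identifiers because the files do not pair them with names, so the marker genes of spermatocytes could not be looked up and the roles of single genes are not stated.

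Spermatocytes are the germ cells in which homologous chromosomes pair, recombine and separate in the meiotic divisions. Their genes are switched on in the testis between the proliferation of spermatogonia and the differentiation of haploid spermatids, and they include the proteins that build the synaptonemal complex and repair programmed DNA breaks, together with many that are stored for later use in sperm. The X and Y chromosomes are silenced during this stage, while autosomes such as these stay active, and transcripts made in spermatocytes can persist into spermatids.

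The study hybridized testis RNA of 12 males, each 60 days old, to 1 Affymetrix array per male, with 3 males of each of 4 genotypes. The DxD males were intraspecific F1 offspring of M. domesticus, with a LEWES/EiJ dam and a WSB/EiJ sire, and the MxM males were intraspecific F1 offspring of M. musculus, with a PWK/PhJ dam and a CZECHII/EiJ sire. The DxM males were fertile hybrids of a LEWES/EiJ dam and a PWK/PhJ sire, and the MxD males were the sterile reciprocal hybrids of a PWK/PhJ dam and a LEWES/EiJ sire. Both hybrids therefore carried 1 LEWES/EiJ and 1 PWK/PhJ copy of each member, and they differed in their sex chromosomes, their mitochondria and the parent from which each copy came. The DxD and MxM males were not the parents of the hybrids, since WSB/EiJ and CZECHII/EiJ are absent from them. The array was designed on a laboratory genome of mostly M. domesticus origin, so in comparisons of DxD with MxM a difference in transcript level and a difference in how well the transcript matches the probes cannot be told apart. In whole testis, fewer cells of a type and less RNA per cell cannot be told apart either.

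Values are on the log2 scale, on which a difference of 1 is a doubling, and they describe the same gene across males. The arrays of the 12 males had identical distributions with a median of 8.14, and the members' values ran from 3.72 to 13.26. Within a genotype, the median SD over the members was 0.072 in DxD, 0.095 in DxM, 0.115 in MxD and 0.127 in MxM, and over all genes it was 0.080, 0.106, 0.123 and 0.149. The males labelled replicate 1 stood apart together. Their deviations from the genotype mean, taken across the 206 members, correlated between genotypes at 0.55 to 0.87, where replicate 2 males gave 0.042 to 0.65 and replicate 3 males gave -0.14 to 0.66. In 65 members the replicate 1 male was the lowest of its 3 in all 4 genotypes, and in 25 it was the highest in all 4. Over all genes those shares were 20.4% and 14.9%, against 31.6% and 12.1% of the members. The labels do not say what replicate 1 males had in common. Counts without these males, and from fits with a replicate block, are given beside the results they move. MxM replicate 3 lay more than 1 log2 unit below every other male in 7 members (3.40%), against 131 of all genes (1.87%).

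Summed up by male, the members lay close to their medians in every genotype. The median over members of the log2 value minus the gene's median over 12 males was 0.0069, 0.021 and 0.017 in the DxD males, 0.012, 0.0032 and 0.056 in the MxM males, -0.027, 0.0022 and 0.015 in the DxM males, and -0.086, 0.0013 and -0.021 in the sterile MxD males. The sterile males overlapped the fertile ones, and the lowest of them was the replicate 1 male. Set against the male of the same number, each MxD male had the lower median, with differences of -0.059, -0.00090 and -0.035 for replicates 1, 2 and 3 against DxM, -0.093, -0.019 and -0.038 against DxD and -0.099, -0.0019 and -0.077 against MxM. The replicate 2 pairs with DxM and MxM were nearly equal. Postmeiotic genes of the same chromosomes gave -0.11, -0.16 and -0.22 in the MxD males and -0.0040 to 0.13 in the 9 fertile males, while mitotic genes gave 0.12, 0.097 and 0.24 in MxD and -0.13 to 0.068 in fertile males. Both of those classes separated the sterile from the fertile males without overlap, in opposite directions. The meiotic genes did not, and neither did the somatic genes, at 0.054, 0.072 and 0.12 in MxD and -0.14 to 0.15 in fertile males, or the genes with no cell type, at -0.032, 0.011 and 0.0082 in MxD and -0.014 to 0.068 in fertile males.

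**Figure D1:**
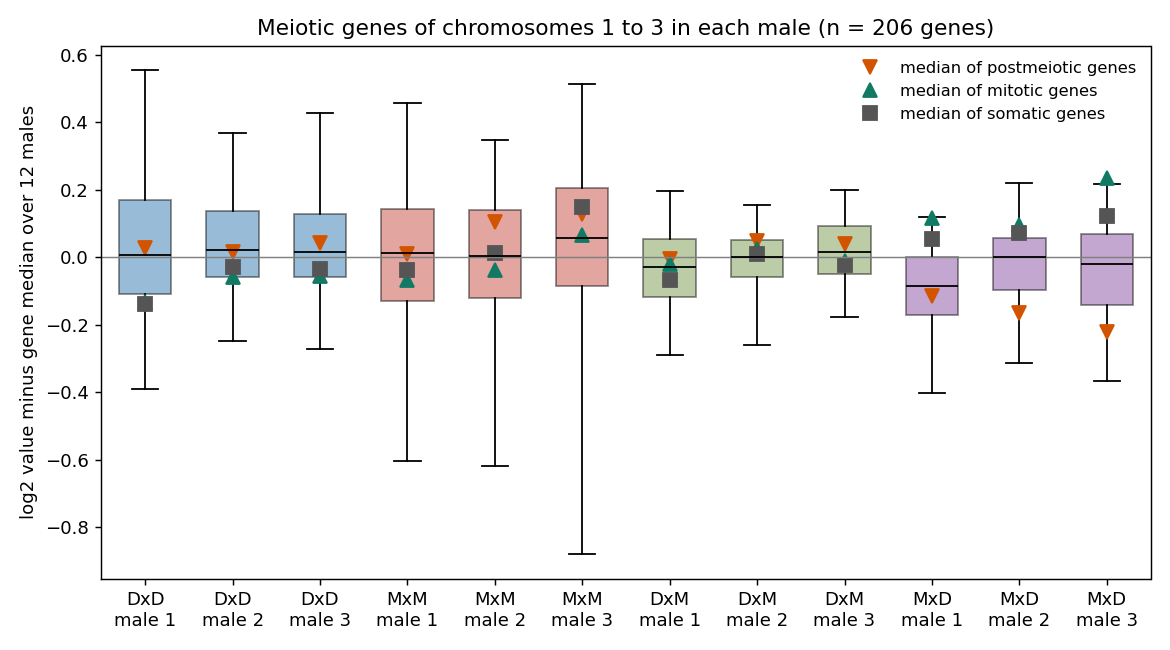
Deviation of the 206 meiotic genes in each male, as the log2 value minus the gene's median over 12 males (y axis), for 3 males of each genotype (x axis). Boxes span the middle 50% of genes with the median as a line, whiskers run from the 5th to the 95th percentile, and symbols give the medians of the other classes on chromosomes 1 to 3. The meiotic medians of the MxD males, -0.086 to 0.0013, overlap those of the fertile males, whereas the postmeiotic medians lie below and the mitotic medians above them.

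The comparison of sterile MxD with fertile DxM males asked which members differed between hybrids with the same autosomal genotype. Few did. By limma with Benjamini-Hochberg adjustment over all 7000 genes, 8 of the 206 members (3.88%) passed the 5% threshold, and the share over all genes was 6.5%. There were 6 members that were lower in MxD (3.5% over all genes) and 2 that were higher (3% over all genes). With the replicate block 21 members passed (10.2%, against 17.2% of all genes). Without adjustment, 27 members (13.1%) had a limma p under 0.05, against 21.8% of all genes. The median difference of the members was -0.033, with 131 members below 0 and 75 above, and the median over all genes was -0.00040. Without MxD replicate 1 the members' median was -0.0018, and without the replicate 1 males of all genotypes it was -0.0094. Without MxD replicate 2 or 3 it was -0.048 and -0.032. The size of that small shift thus depended on which males were used. Only 3 members differed by more than 0.5 on the log2 scale and 0 by more than 1, while the middle 80% of members lay between -0.22 and 0.11. The standard error of a difference had a median of 0.092 and the smallest difference of a member that passed was 0.27.

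The genes of the same chromosomes assigned to other cell types had larger median differences between the hybrids, and the genes with no cell type a smaller one. The median difference was -0.20 for postmeiotic genes, 0.16 for mitotic genes and 0.13 for somatic genes. It was 0.0044 for the 679 genes with no cell type, of which 3.09% passed the threshold. Among postmeiotic genes 28 of 165 (17.0%) were lower in MxD and 0 were higher, and among mitotic genes 16 of 215 were higher and 1 was lower. Genes on the second supplementary list had been left out of these classes. That list holds postmeiotic genes higher and mitotic genes lower in sterile males, so the selection itself held down the counts of 0 and 1. Of the 206 meiotic genes, 63.6% lay below 0. No test was run of the difference between classes, because genes of a class are not replicates.

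**Figure D2:**
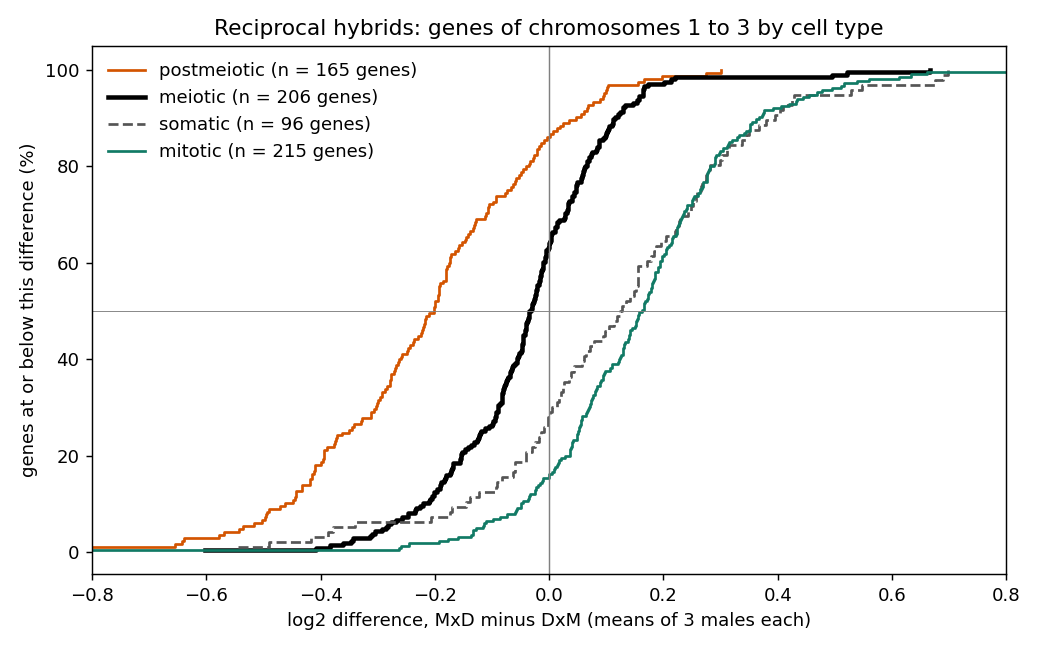
Cumulative share of genes (y axis, in percent) at or below each log2 difference of MxD minus DxM (x axis), for genes of chromosomes 1 to 3 grouped by cell type. The meiotic curve crosses 50% at -0.033, between the postmeiotic curve at -0.20 and the somatic and mitotic curves at 0.13 and 0.16.

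Among the 8 members that passed, the largest increase in MxD over DxM was that of ENSMUSG00000027827 on chromosome 3. Its log2 values were 5.80, 5.82 and 5.78 in the MxD males and 5.09, 5.17 and 5.14 in the DxM males. The DxD males had 6.89, 7.11 and 7.15 and the MxM males 6.85, 7.13 and 6.98. Both hybrids thus lay well below both species, and within that low range the sterile hybrid was the higher, with no overlap between any of the hybrid and intraspecific males. The difference of MxD minus DxM was 0.67 ± 0.087 (SE, limma, adjusted p = 0.00137). It passed in each of the 12 fits that left out a male, and it was the only member that still passed without the replicate 1 males (adjusted p = 0.0146). ENSMUSG00000027827 was among the dimmest genes, and the alternative that removed those genes gave it no value. Over the 20 alternatives that gave it an adjusted p, that p ran from 0.00039 to 0.101.

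The other member that was higher in MxD, ENSMUSG00000061186 on chromosome 2, had values of 8.03, 8.08 and 7.93 in MxD and 7.41, 7.55 and 7.60 in DxM. The MxM males had 7.99, 8.05 and 8.27 and the DxD males 7.47, 7.53 and 7.49. Each hybrid overlapped the species of its mother and not the other species. MxD minus DxM was 0.49 ± 0.085 (SE, limma, adjusted p = 0.00654), and DxD minus MxM was -0.61 ± 0.085 (SE, limma, adjusted p = 0.00024). Neither MxD minus MxM, -0.093, nor DxM minus DxD, 0.021, passed the threshold (limma, adjusted p = 0.441 and 0.93). Of the 8 members, 3 also passed between DxD and MxM, and in all 3 the hybrids differed in the direction of their maternal species. Over all genes 203 passed in both comparisons, which share no males, and 129 of them (63.5%) had that direction.

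The largest decrease was in ENSMUSG00000032908 on chromosome 1. Its values were 6.05, 6.55 and 6.08 in MxD, 6.81, 7.05 and 6.63 in DxM, 7.27, 7.30 and 7.35 in DxD, and 6.83, 7.21 and 7.32 in MxM. All 3 sterile males were below all 9 fertile ones, although MxD replicate 2 came close to DxM replicate 3. MxD minus DxM was -0.60 ± 0.16 (SE, limma, adjusted p = 0.0479), and this call was kept in 3 of the 12 fits that left out a male. ENSMUSG00000032908 was also removed with the dimmest genes, so that alternative did not test it. Over the 20 alternatives that gave it an adjusted p, that p ran from 0.0166 to 0.328.

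Next was ENSMUSG00000036962, also on chromosome 1, with 8.02, 7.96 and 7.68 in MxD, 8.20, 8.30 and 8.32 in DxM, 8.57, 8.68 and 8.74 in DxD, and 8.18, 8.43 and 8.36 in MxM. The sterile males were again the lowest 3 of 12, and the DxM males overlapped the MxM males. The difference of MxD minus DxM was -0.38 ± 0.10 (SE, limma, adjusted p = 0.0434), kept in 3 of the 12 fits that left out a male, with an adjusted p of 0.0155 to 0.341 over the alternatives.

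The remaining 4 decreases were between -0.35 and -0.27. A chromosome 2 member had 8.31, 8.44 and 8.45 in MxD and 8.71 to 8.89 in the fertile males, and its difference of -0.35 (limma, adjusted p = 0.0083) was kept in each of the 12 fits. A chromosome 3 member had 6.71 to 6.75 in MxD, 7.02 to 7.07 in DxM and 6.79 or more in the intraspecific males. The other 2, on chromosomes 1 and 3, differed by -0.27 and -0.30 (limma, adjusted p = 0.0425 and 0.0366) and were each kept in 3 of 12 fits. In the chromosome 1 member the MxD males, at 9.67 to 9.87, lay below all fertile males, at 10.02 or more. In the chromosome 3 member they had 8.01, 8.13 and 7.98 and overlapped the MxM males, at 8.04, 8.06 and 8.24. Its MxD minus MxM was -0.0745, which did not pass (limma, adjusted p = 0.491).

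**Figure D3:**
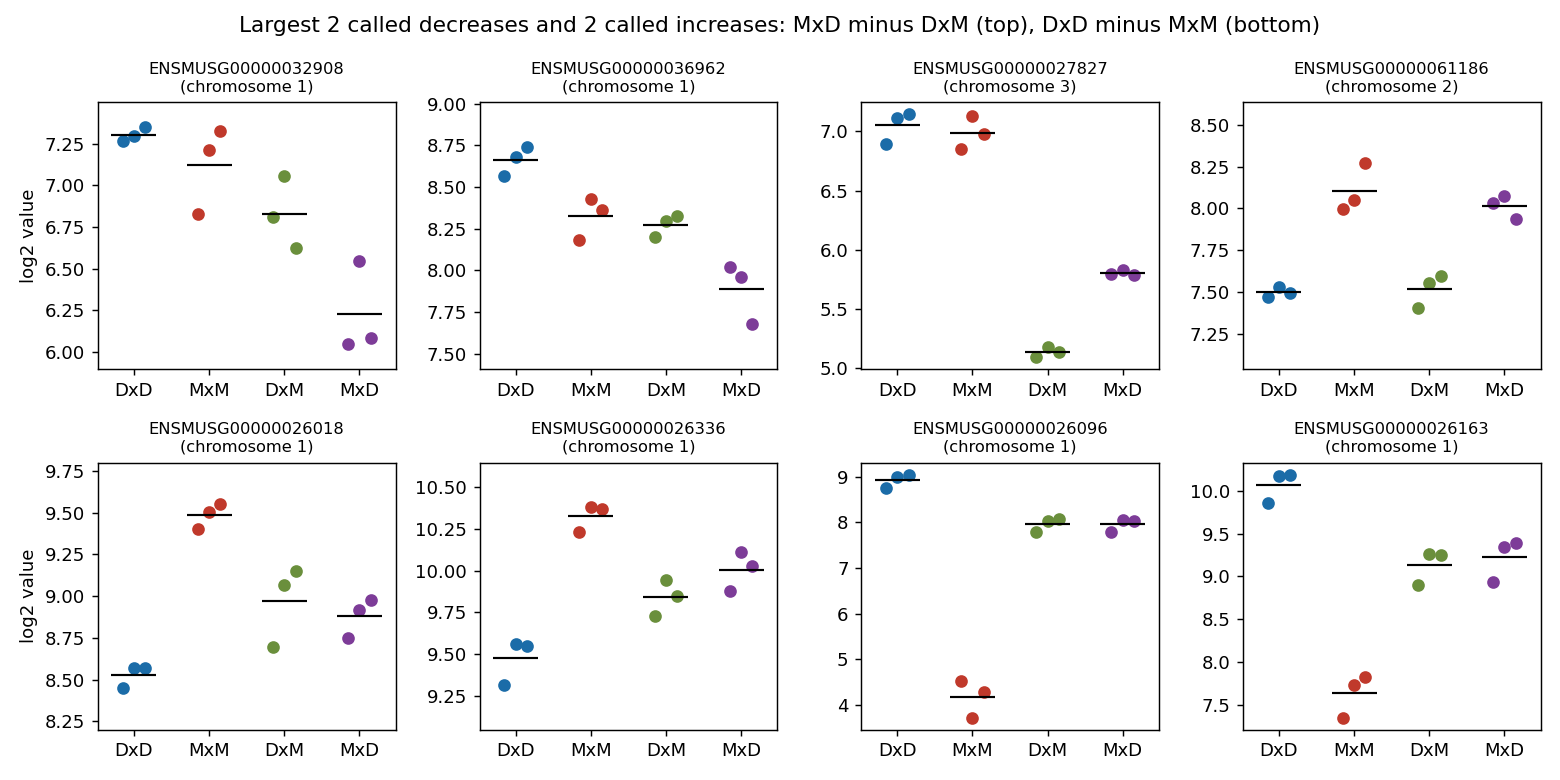
Log2 values of 8 members in the 12 males, with points for males (replicates 1 to 3 from left to right within a genotype) and lines for genotype means. The top row holds the 2 largest decreases and the 2 largest increases among members called in MxD minus DxM, the bottom row the same for DxD minus MxM, and each panel has its own y axis. In the top row both hybrids of ENSMUSG00000027827 lie at or below 5.82 and both species at or above 6.85, and in the bottom row the hybrids lie between the species.

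The count of 8 depended on the males and on the fit. It fell to 3 without any single DxM male or without MxD replicate 3, and to 4 without any single DxD male or MxM replicate 2. Leaving out a DxD or MxM male does not change a difference of MxD minus DxM. It changes only the shared estimate of the spread and with it the p-values. With the replicate numbers taken as pairs, 21 members passed (10.2%, against 17.2% of all genes). Of these 17 were lower in MxD (8.25%, against 8.83%) and 4 higher (1.94%, against 8.33%). Without the replicate 1 males of all genotypes, which was tried after seeing that they deviate together, 1 member passed. That fit has fewer males of each genotype. In it the 6 decreases were -0.52 to -0.29 and the 2 increases 0.43 and 0.65. Shares over all genes were not computed for fits that left out males, so these falls are not read as a trait of the members.

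Members outside the whole range of the fertile males were mostly low. In 13 members (6.31%) all 3 MxD males lay below all 9 fertile males, and in 2 members (0.971%) they lay above. Over all genes the shares were 5.57% and 5.47%. Of the 13 low members 6 were on chromosome 1, 5 on chromosome 2 and 2 on chromosome 3, and both high members were on chromosome 3. The high ones were close to the fertile males: 1 had 12.03, 12.02 and 12.09 in MxD against at most 11.99 in fertile males, the other 11.38, 11.44 and 11.45 against at most 11.36. Leaving out MxD replicate 1 raised the low count to 17 and the high count to 11. Leaving out DxM replicate 3 raised the high count to 4, and leaving out MxD replicate 2 raised the low count to 23. With fewer males the rule is looser for every gene. Shares over all genes were not computed for these settings, so the rises are not read as a trait of the members. Past the adjusted threshold in all 3 contrasts of MxD with a fertile genotype there were 4 members that were lower in MxD (1.94%) and 0 that were higher (0%), by limma. The shares over all genes were 1.94% and 1.86%. At an unadjusted p under 0.05 in all 3 contrasts, limma gave 10 lower (4.85%, against 5.24% of all genes) and 1 higher (0.485%, against 5.14%). The 4 included ENSMUSG00000032908 and ENSMUSG00000036962. The other two were the chromosome 2 member with a difference of -0.35 and the chromosome 1 member with a difference of -0.27. The methods' t-test without adjustment gave 10 members lower in all 3 with equal variances and 4 with unequal variances. Shares over all genes were not computed for that test. After adjustment it gave 0 in either form. Limma without the replicate 1 males also gave 0, and without single males, such as any DxM male, it gave as few as 1. With the replicate block it gave 11 lower (5.34%, against 4.81% of all genes) and 1 higher (0.485%, against 4.9%).

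The comparisons of MxD with each species asked how far the sterile hybrid stood from either. Against DxD, 54 members passed (26.2%, against 31% of all genes). They were mostly decreases, with 39 lower in MxD and 15 higher, where 15.1% and 15.9% of all genes were lower and higher. The median difference of the members was -0.078, and that of all genes -0.0077. Called decreases had a median of -0.46 and reached -1.25, in ENSMUSG00000027827, and called increases had a median of 0.33 and reached 0.59. Against MxM, 57 members passed (27.7%, against 30.3% of all genes), with 40 lower in MxD and 17 higher, where 17.3% and 13% of all genes were lower and higher. The median difference was -0.070, and the mean was -0.014. Against DxD the count was 34 without DxD replicate 2 and 66 without MxM replicate 3, and the 15 increases became 7 without MxD replicate 3, 8 without MxD replicate 2 and 24 without MxD replicate 1. Without DxD replicate 1, 2 or 3 the increases were 9, 8 and 9, and without DxM replicate 2 they were 10. Against MxM the count was 39 without MxD replicate 3 and 26 in a fit of the 2 genotypes alone. The 215 mitotic genes of the same chromosomes ran the other way in both comparisons. There were 83 higher and 7 lower than in DxD, and 66 higher and 7 lower than in MxM. Mitotic genes on the second supplementary list, which were lower in sterile males, had been left out of these counts. The medians of the postmeiotic genes, given above, were lower in the MxD males than in all fertile males. Within MxD they were lowest in replicate 3, at -0.22, whereas the members' median was lowest in replicate 1, at -0.086. The part of the postmeiotic genes in the members' values was not tested.

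**Figure D4:**
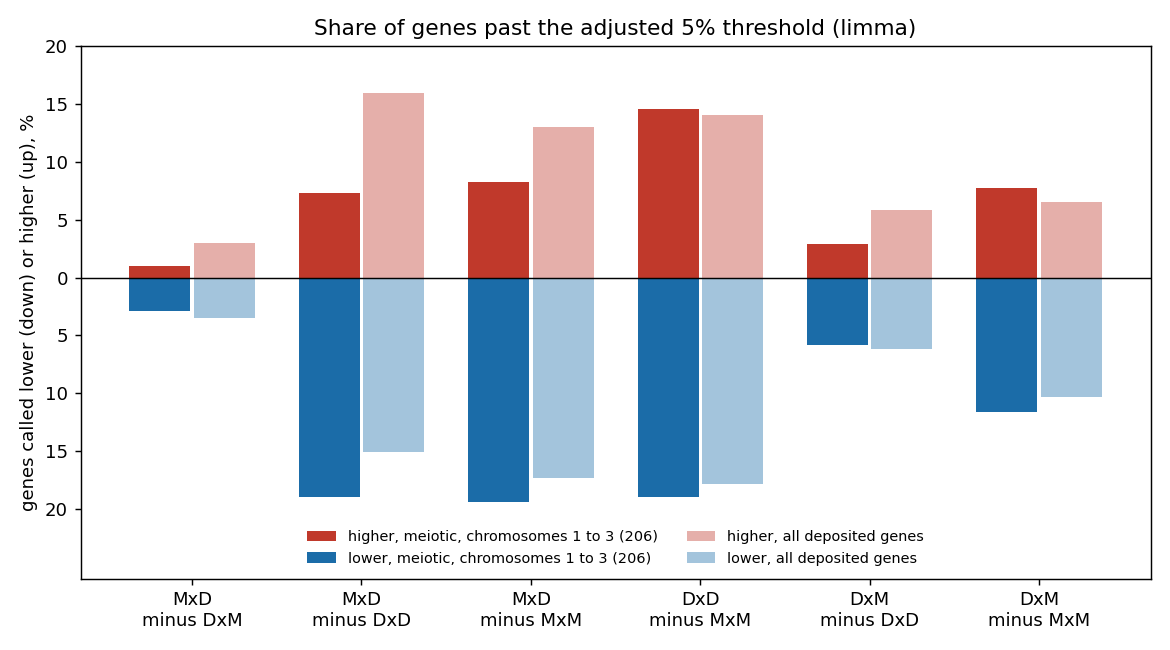
Percent of genes called higher (upward bars) or lower (downward bars) in the first-named genotype of each of 6 contrasts, for the 206 meiotic genes (dark) and all 7000 genes (light), by limma at an adjusted 5%. Dark downward bars exceed dark upward bars in each contrast, and the contrast of MxD minus DxM has the fewest calls, 2 higher and 6 lower.

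The comparison of DxD with MxM asked how the members differ between the species. In all, 69 members passed (33.5%, against 31.9% of all genes). DxD had the higher level in 30 of them and MxM in 39, where 14% of all genes were higher in DxD and 17.8% lower. The largest differences ran 1 way. In 12 members DxD exceeded MxM by more than 1 on the log2 scale, and in 0 members MxM exceeded DxD by that much, while over all genes 169 (2.41%) and 118 (1.69%) did. Of the 12, 10 passed the adjusted threshold. The 2 that did not pass were members in which MxM replicate 3 was far below the other MxM males, and without that male 10 members exceeded 1.

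The largest difference was in ENSMUSG00000026096 on chromosome 1, with 8.76, 8.98 and 9.04 in DxD and 4.53, 3.72 and 4.29 in MxM. The MxM values were close to the lowest value on the arrays, 3.08. DxM had 7.80, 8.03 and 8.08 and MxD had 7.79, 8.05 and 8.03, which is 0.513 and 0.510 times the DxD level on the linear scale. DxD minus MxM was 4.75 ± 0.18 (SE, limma, adjusted p = 8.31e-09). In ENSMUSG00000026163, also on chromosome 1, DxD had 9.85, 10.17 and 10.19 and MxM 7.36, 7.74 and 7.83, a difference of 2.43 ± 0.16 (SE, limma, adjusted p = 1.15e-06). The hybrids again fell in between, with 8.90, 9.26 and 9.25 in DxM and 8.94, 9.35 and 9.39 in MxD. In each genotype of this member the replicate 1 male was the lowest.

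Members higher in MxM differed less. ENSMUSG00000026018 on chromosome 1 had 8.45, 8.57 and 8.57 in DxD and 9.40, 9.51 and 9.55 in MxM, a difference of -0.96 ± 0.11 (SE, limma, adjusted p = 7.15e-05). Its hybrids had 8.69, 9.07 and 9.15 in DxM and 8.75, 8.91 and 8.98 in MxD. ENSMUSG00000026336 on chromosome 1 had 9.31, 9.56 and 9.55 in DxD and 10.23, 10.38 and 10.37 in MxM, a difference of -0.85 ± 0.095 (SE, limma, adjusted p = 4.77e-05). Its hybrids had 9.73, 9.95 and 9.85 in DxM and 9.88, 10.11 and 10.03 in MxD. In both members the species did not overlap and every hybrid male lay between them. These 4 differences passed under all 21 alternatives with an adjusted p.

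Among the members called between DxD and MxM, hybrid means mostly lay between the species. Of the 69 members that differed between DxD and MxM, the DxM mean was between the species means in 60, below both in 8 and above both in 1. The MxD mean was between in 55, below both in 13 and above both in 1. The median position, from 0% at MxM to 100% at DxD on the log2 scale, was 55.2% in DxM and 58.2% in MxD. Set against the arithmetic mean of the species on the linear scale, the hybrids were lower by a median of 0.034 log2 units in DxM and 0.074 in MxD, and the median distance from it in either direction was 0.084 and 0.10. For ENSMUSG00000026096 that linear mean was 7.98, and the hybrid means were 7.97 in DxM and 7.96 in MxD. Since the hybrids share strains with the species males but not both parents, this is a description of position only. The 69 members were chosen by the same species means, far apart, that the hybrids are placed against, which favours a position between them. The share over all genes was not computed, and no test of the position was made.

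**Figure D5:**
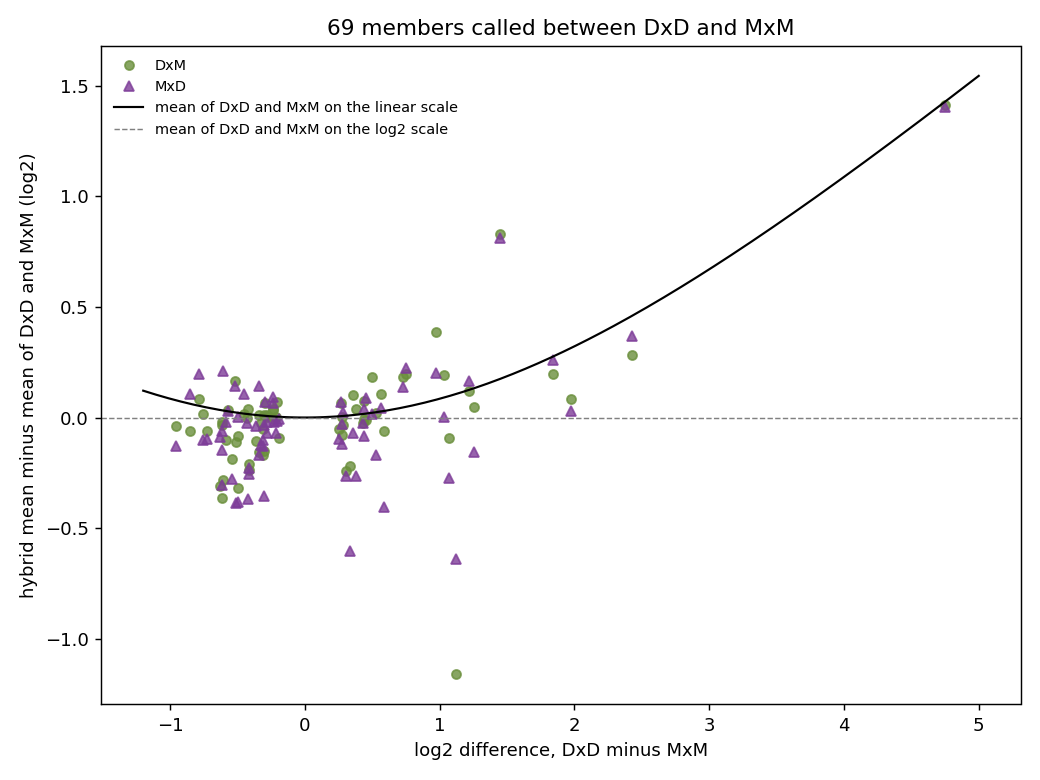
Position of the hybrids in the 69 members called between DxD and MxM, with the DxD minus MxM difference on the x axis and the hybrid mean minus the mean of DxD and MxM on the y axis, both in log2 units. Circles are DxM and triangles MxD, the dashed line is the log2 mean of the species and the curve the mean on the linear scale. The member with the largest difference, 4.75, lies next to the curve in both hybrids, and 1 member with a difference of 1.12 lies far below it.

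A pair of the 12 members with large species differences departed from that pattern in both hybrids. A chromosome 2 member had 6.57, 6.35 and 6.43 in DxD and 4.62, 5.56 and 5.82 in MxM, and its hybrids had 4.67, 4.69 and 4.83 in DxM and 4.99, 5.71 and 5.06 in MxD. The hybrids thus lay within the range of the MxM males, which was wide, and below the DxD males. Another chromosome 2 member had 10.06, 10.02 and 9.94 in DxD and 9.23, 8.64 and 7.81 in MxM, whereas the hybrids had 10.19, 10.06 and 10.09 in DxM and 10.15, 10.18 and 9.96 in MxD. Here the hybrids overlapped the DxD males and none reached the MxM range. Both were described after their values were seen.

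The fertile DxM hybrid was compared with each species in the same way. Against DxD, 18 members passed (8.74%, against 12.1% of all genes), with 12 lower and 6 higher in DxM, where 6.21% and 5.84% of all genes were lower and higher, and the median difference of the members was -0.035. With the replicate block 50 passed (24.3%, against 22.6% of all genes), 28 lower and 22 higher, where 11.7% and 10.9% of all genes were lower and higher. In the fit with no block, 11 passed without DxD replicate 2 or 3. Against MxM, 40 members passed (19.4%, against 16.9% of all genes), with 24 lower and 16 higher, where 10.4% and 6.51% of all genes were lower and higher, and the median difference was -0.045. Without DxM replicate 1 that count was 25 and without DxM replicate 3 it was 19. The contrasts with DxD and with MxM share the DxM males, so their calls are not independent, and no test was made of whether MxD and DxM differ in their number of calls.

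Only 2 members were lower in both hybrids than in both species by limma at the adjusted threshold (0.971%), and 0 were higher (0%), against 0.914% and 0.243% of all genes. At an unadjusted p under 0.05 in all 4 contrasts the counts were 4 (1.94%) and 2 (0.971%), against 2.14% and 0.957% of all genes. The first was ENSMUSG00000027827, in which DxM was at 0.265 and MxD at 0.420 times the DxD level on the linear scale. DxM minus DxD was -1.92 and DxM minus MxM -1.85, and MxD minus DxD was -1.25 and MxD minus MxM -1.19 (SE 0.087 each, limma, adjusted p at most 9.63e-06). DxD minus MxM, 0.065, did not pass (limma, adjusted p = 0.606). The second, on chromosome 2, had 9.63, 9.64 and 9.65 in DxD, 9.49, 9.63 and 9.74 in MxM, 9.22, 9.31 and 9.17 in DxM, and 9.08, 9.06 and 8.90 in MxD. The 6 hybrid males were below the 6 intraspecific males in both members. In the second MxD was below DxM by 0.22, which did not pass (limma, adjusted p = 0.134).

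The members were also counted by chromosome. Between MxD and DxM 3 of 66 members passed on chromosome 1 (4.55%), all of them lower in MxD. There were 2 of 88 on chromosome 2 (2.27%) and 3 of 52 on chromosome 3 (5.77%). The share over all genes was 6.5%. The median differences were -0.044, -0.041 and 0.0067. Between DxD and MxM 23 members passed on chromosome 1 (34.8%), 32 on chromosome 2 (36.4%) and 14 on chromosome 3 (26.9%). Over all genes 31.9% passed. Members that exceeded 1 in DxD over MxM numbered 3, 6 and 3 (4.55%, 6.82% and 5.77%, against 2.41% of all genes). Against DxD, the MxD males had 13 lower and 6 higher members on chromosome 1, 15 and 5 on chromosome 2, and 11 and 4 on chromosome 3. Against MxM they had 17 and 6, 18 and 5, and 5 and 6. Of all genes, 15.1% were lower and 15.9% higher against DxD, and 17.3% and 13% against MxM. Decreases outnumbered increases on each chromosome in these contrasts, except on chromosome 3 against MxM, and the difference between chromosomes was not tested.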

How the data were processed

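Total RNA from whole testis of 12 males (3 of each of 4 genotypes) was hybridized to Affymetrix Mouse Genome 430 2.0 arrays. Signals of the probes of a gene were combined by the authors with the PLIER model, using version 11 of the BRAINARRAY probe definitions. Only genes whose signal was detectable in each male were retained, and quantile normalization followed. Their deposited log2 values entered the tests unchanged. Chromosome and cell type were read from the first 1997 rows of the study's supplementary gene table, which cover chromosomes 1 to 3, with annotation by the authors from Ensembl and NCBI genome builds named in their methods. The number of arrays sets the precision.

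Genotypes were compared in 6 contrasts with limma 3.58.1 in R 4.3.3 (lmFit and eBayes, 1 coefficient per genotype, two-sided), with Benjamini-Hochberg adjustment at 5% over all 7000 genes. The script was tested on simulated data. Counts, medians and positions were computed in Python 3.11.15 and carry no test. Whether the 3 males of a genotype came from separate litters is not given in the sources used here, so p-values measure the spread between these males. The members, lists and rules were chosen with earlier results of these data known. The rule for named genes took the largest called differences in each direction in MxD minus DxM and in DxD minus MxM, and 2 identifiers in each direction are printed because names are not used here. Lists of gene symbols, cell type markers and promoter motifs that had been written down could not be applied, for the same reason, and no sequence is shown.

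Groups share replicate numbers. Deviations of same-numbered males over all genes correlated at no less than 0.15 in MxD minus DxM, MxD minus DxD, MxD minus MxM and DxM minus DxD, so the numbers were taken to pair the males there. In DxD minus MxM and DxM minus MxM the lowest correlation was 0.074 and -0.051, and the males share only a number. Results were recomputed with limma without adjustment, the methods' t-test (unequal or equal variances), limma on the 2 genotypes compared and the replicate block. The methods name Student's t-tests, the form with equal variances. Other alternatives were a trended and robust prior, array weights, removal of the dimmest 25% of genes, centring, and each male left out in turn. Centring used the median of the 2005 genes whose autosomal position was read here, which include the members. Removal of all replicate 1 males was added after seeing the data.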

Additional observations from a re-analysis of the deposited data

How the results depend on the processing

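The counts of called members moved with the test more than with the scaling. Contrasts are listed here in the order MxD minus DxM, MxD minus DxD, MxD minus MxM, DxD minus MxM, DxM minus DxD and DxM minus MxM, with 8, 54, 57, 69, 18 and 40 members by limma. Unequal variances in the methods' t-test gave 16, 65, 52, 63, 52 and 42 at its unadjusted threshold and 0, 18, 0, 19, 4 and 0 after Benjamini-Hochberg adjustment. Equal variances gave 25, 74, 58, 74, 65 and 51 unadjusted, and 2, 41, 15, 45, 25 and 5 adjusted. Limma without adjustment gave 27, 73, 80, 92, 51 and 64, and limma on the 2 genotypes alone gave 3, 59, 26, 56, 30 and 14. The replicate block gave 21, 81, 84, 98, 50 and 61, and in the last contrast and in DxD minus MxM the males share only a number. Array weights, whose estimation did not converge fully, gave 11, 82, 37, 76, 77 and 30. Without the dimmest 25% of genes the counts were 5, 51, 53, 64, 17 and 36, with 191 members left. Without all replicate 1 males they were 1, 46, 45, 64, 19 and 32, and 24 members lay below and 12 above all fertile males, in place of 13 and 2. Lying outside all fertile males is a looser rule with fewer males, and its share over all genes was not computed there. Nor were the shares of called genes over all genes in the fits that left out males. Centring and the trended and robust prior kept each count within 1.5 times. Leaving out single males gave 3 to 9, 34 to 66, 39 to 59, 47 to 82, 11 to 24 and 19 to 42 called members, 13 to 23 members below and 2 to 11 above all fertile males, and median differences of -0.048 to -0.0018 in MxD minus DxM and -0.047 to -0.016 in DxM minus MxM. The lowest counts came without any DxM male or MxD replicate 3 (3), DxD replicate 2 (34, 47 and, also without DxD replicate 3, 11), MxD replicate 3 (39) and DxM replicate 3 (19). The median difference in MxD minus DxD was -0.12 with centring, against -0.078. The mean in place of the median was -0.014 in MxD minus MxM, 0.088 in DxD minus MxM and 0.025 in DxM minus MxM. Array weights gave a median of -0.013 in DxM minus MxM. The shift in DxM minus MxM thus had no settled size. Its median stayed below 0 under each alternative, while its mean was above 0. No named difference changed sign under an alternative. The cause of these movements was not tested.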
